A study of Homo sapiens with 18 samples.

Results

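The HOX genes of the A, B, C and D clusters were followed through the conversion of human embryonic stem (ES) cells to neuroepithelium. A gene was taken as a member when the array annotation gave it a symbol of the HOX cluster type, a cluster letter followed by a paralogue number. This found 28 of the 19775 genes that a probe set named alone, out of 39 protein-coding HOX genes in the RefSeq gene table. HOXB was covered by 10 of 10 genes, HOXC by 9 of 9 and HOXD by 8 of 9, but HOXA by 1 of 11, HOXA2. HOXD3 was read only by probe sets shared with other genes. The other HOXA genes are not analysed here, so statements on paralogue position rest on HOXB, HOXC and HOXD and, for paralogues 1 to 4, also on HOXA2. HOXA2, a hindbrain gene, was the 1 member that passed the test in any of 8 comparisons, higher at day 17 than in ES cells (1 of 28, against 20.2% of all genes). That call was lost with quantile scaling and without ES pool 1, ES pool 3 or day 17 pool 3. No other member passed with the model as fitted. With pool number as a block HOXB3 passed as higher at day 17 than in ES cells, and HOXC6 as lower at day 6 than in ES cells. Over the alternatives run, HOXB3 passed in 4 of 18 and HOXC6 in 6 of 17. Pools of the same number do not always name the same passages.

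HOX proteins are homeodomain transcription factors that give cells an address along the head-to-tail axis. Genes of low paralogue number are switched on first and reach forward into the hindbrain, while genes of high number are restricted to progressively more caudal spinal cord and trunk. The forebrain and midbrain form without HOX expression, and retinoic acid, FGF and Wnt signals, acting in part through the CDX factors, switch the clusters on in caudal neural tissue.

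H9, an established human ES cell line, was the source of every sample, and each group was represented by 3 RNA pools on 3 one-colour arrays. The groups were undifferentiated ES cells, day 6 embryoid bodies (floating aggregates), and neuroepithelium of day 10 and of day 17, either untreated or exposed from day 6 on to bFGF, the basic form of fibroblast growth factor (FGF2). The labels give the bFGF dose as 20 ug/ml at day 10 and 20 ng/ml at day 17, a conflict that they do not resolve. They call the day 10 cells primitive and the day 17 cells definitive neuroepithelium. All groups share 1 line, pools mix material from several passages, and some pools of different groups name the same passages. Day 6 pools 1 and 2 also name the same passages as each other. Nothing in the labels says that pools of a group came from separate differentiations, so p-values measure the spread between these pools, which may be partly technical.

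Each array gave 1 linear scaled signal per probe set. The array median was 48.7 to 50.8 on 4 arrays, pool 2 of the 4 neuroepithelium groups, and 25.2 to 32.7 on the other 14. On these 4 arrays the low end of the signal range was raised, and HOX genes lie at that end: the median HOX signal of an array was 37.2 to 53.7 on the 4 and 9.52 to 19.7 on the 14. Of the 28 HOX genes 22 had their highest array among the 4, against 38.4% of all genes. The medians over the HOX genes and the called HOXA2 difference are therefore given with and without these arrays, and the part of the raised low signals in the other HOX values was not tested. The arrays carried the course that the labels describe: NANOG, a pluripotency factor, had a mean signal of 3203 in ES cells and 21.0 at day 17, and SOX1, a neuroepithelial factor, 11.8 and 1551.

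Promoter sequences are shown for the 3 members with the bipartite PBX-HOX motif TGATNNAT, HOXA2, HOXB1 and HOXD11. HOXA2 among them is the single HOX gene that passed the test in these data. PBX and HOX proteins bind this kind of motif together. The sequences are from RefSeq on GRCh38.p14 and run from 250 bases before the annotated transcript start to 50 after it, 5′ to 3′ on the strand of the gene. Capitals mark the motif, searched on both strands, and the HOXA2 and HOXD11 copies read as its reverse complement. The HOXA2 window is chr7:27102634-27102933 on the minus strand, with the motif beginning 114 bases before the start. The HOXB1 window is chr17:48530962-48531261 on the minus strand, with the motif 125 bases before the start. The HOXD11 window is chr2:176107030-176107329 on the plus strand, with the motif 67 bases before the start.
HOXA2: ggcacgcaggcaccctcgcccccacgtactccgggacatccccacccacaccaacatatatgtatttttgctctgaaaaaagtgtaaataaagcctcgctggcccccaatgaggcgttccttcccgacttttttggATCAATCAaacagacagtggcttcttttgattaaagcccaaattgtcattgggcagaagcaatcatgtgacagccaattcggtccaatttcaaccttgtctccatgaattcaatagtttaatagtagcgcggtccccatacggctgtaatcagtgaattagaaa
HOXB1: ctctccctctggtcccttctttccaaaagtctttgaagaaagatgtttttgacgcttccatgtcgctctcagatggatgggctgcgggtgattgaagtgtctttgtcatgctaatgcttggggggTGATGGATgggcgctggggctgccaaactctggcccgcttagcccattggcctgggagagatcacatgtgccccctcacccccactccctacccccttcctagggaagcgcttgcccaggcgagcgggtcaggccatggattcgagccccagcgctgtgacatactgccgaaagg
HOXD11: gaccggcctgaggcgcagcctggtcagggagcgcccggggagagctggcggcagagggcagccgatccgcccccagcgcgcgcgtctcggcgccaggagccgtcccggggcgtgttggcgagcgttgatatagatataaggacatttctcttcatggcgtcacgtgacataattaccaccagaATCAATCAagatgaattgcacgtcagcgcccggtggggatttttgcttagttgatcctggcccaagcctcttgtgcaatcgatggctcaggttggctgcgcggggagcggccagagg

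A promoter was found for 11 of the 28 members, which makes 10 distinct sequences because HOXC4 and HOXC5 share one. The motif was in 3 of these 10 and in 7.42% of 34796 distinct promoters of the same length. TATAAA, a core promoter element, was in 1 of the 10 and in 11.6% of all promoters. AGGTCA, the half-site that retinoic acid receptors bind, was in 0 of the 10 and in 13.8% of all. The HOX promoters held 4 to 36 CpG dinucleotides with a median of 21, against a median of 14 over all promoters. A match here is a description of letters and not of binding, which these arrays did not measure.

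HOX signals were low in every group. Over 504 values, 28 genes on 18 arrays, the signal ran from 0.552 to 154.7 with a median of 18.4, while the 95th percentile of an array was 909 to 1103. The mean of each of the 28 genes lay below the median of all gene means. Only 9 of the 504 values passed 100, of which 6 were on the 4 arrays with raised low signals; the other 3 were all of HOXB2. The table carries no detection calls, so it cannot be said which of these values differ from background. Probe sets differ in their response, so these are places in the signal range and not transcript levels set against other genes. In bulk RNA, fewer cells with a transcript and less transcript per cell cannot be told apart.

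**Figure D1:**
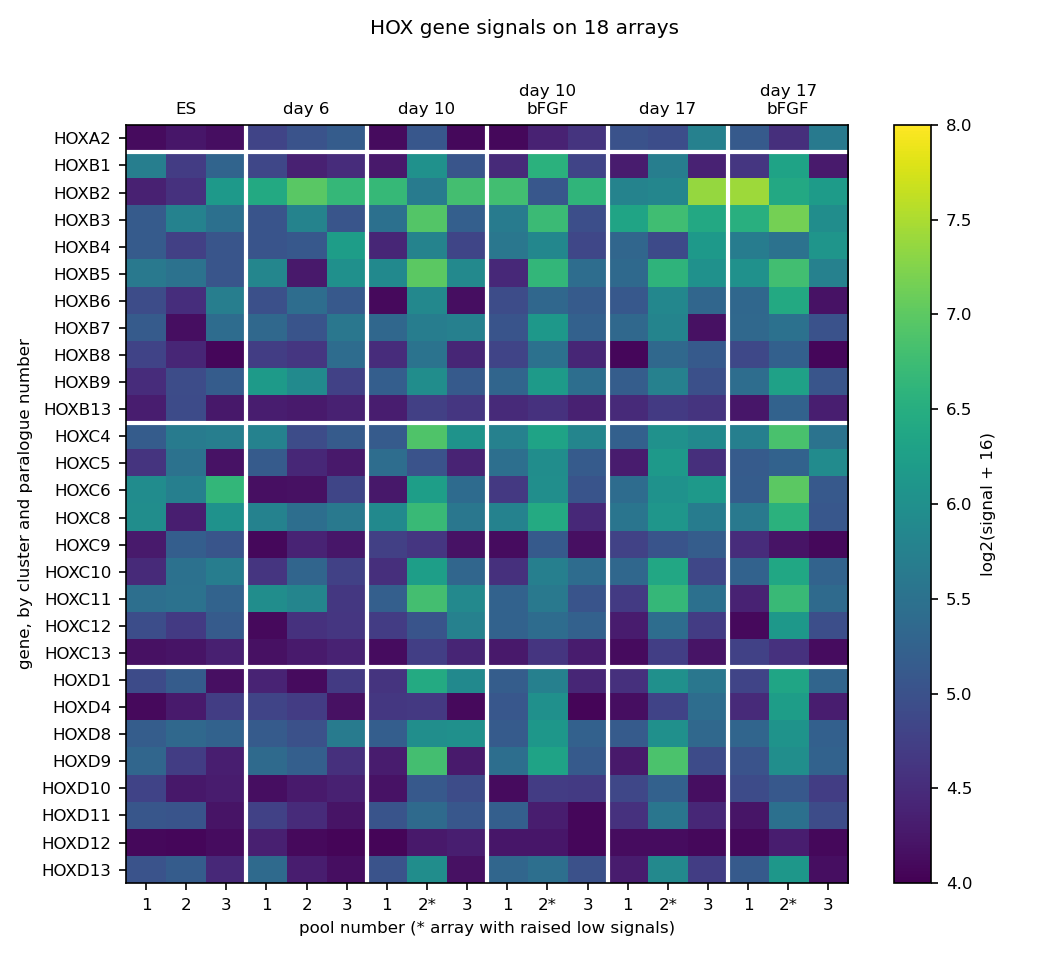
Signal of the 28 HOX genes (rows, by cluster and paralogue number) on the 18 arrays (columns, by group and pool), with colour for log2(signal + 16) and asterisks on the 4 arrays with raised low signals. These 4 stand out as brighter columns, with HOX medians of 37.2 to 53.7.

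**Figure D2:**
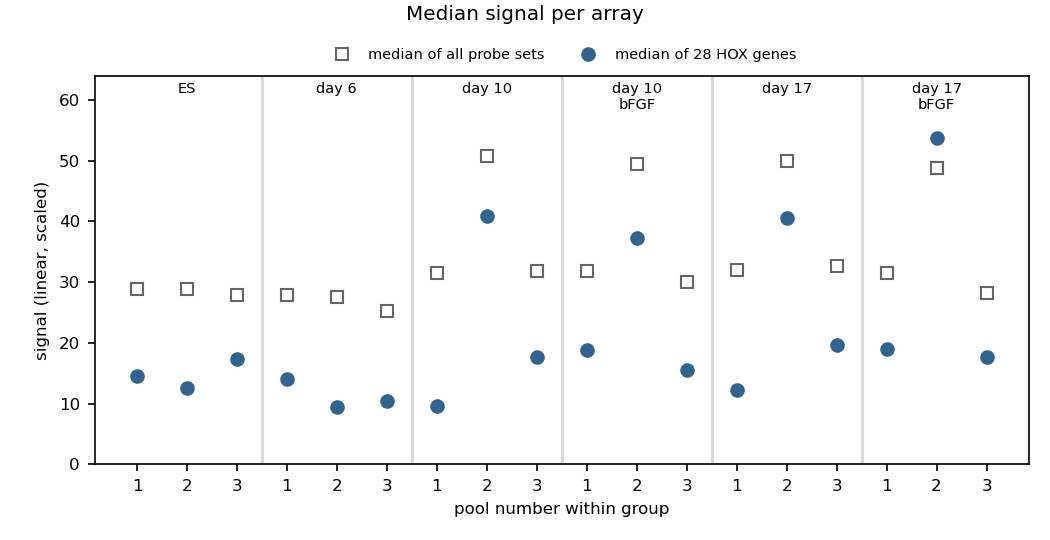
Linear signal on each of the 18 arrays, by group and pool: the median of all probe sets (open squares) and the median of the 28 HOX genes (filled circles). The 4 arrays with medians of 48.7 to 50.8 had HOX medians of 37.2 to 53.7, and the other 14 had 9.52 to 19.7.

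Among paralogues 1 to 4, which pattern the hindbrain, HOXA2 was the 1 gene that passed the test, at day 17 against ES cells. HOXB2 had a larger difference there and HOXB3 a similar one, neither past the test. HOXA2 marks the second rhombomere and everything behind it. It read 1.33, 2.97 and 1.71 in the 3 ES pools and 12.3, 16.5 and 19.7 in the day 6 pools. It read 1.34, 17.9 and 0.991 at day 10, and 0.987, 4.85 and 8.41 at day 10 with bFGF. At day 17 it read 16.2, 14.8 and 38.2 without and 19.0, 7.18 and 33.6 with bFGF. All day 6 and all untreated day 17 pools thus lay above all ES pools. Untreated day 10 overlapped them just through pool 2, a raised array, while its pools 1 and 3 were below the highest ES pool. The day 10 pools with bFGF all lay below the day 6 and the untreated day 17 pools.

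HOXA2 rose from a mean of 2.00 ± 0.858 (SD, n = 3) in ES cells to 23.1 ± 13.1 (n = 3) at day 17. On the log2(signal + 16) scale, which understates changes of low genes, the difference was 1.07 ± 0.31 (SE), with a 95% interval of 0.41 to 1.73. Its adjusted p was 0.0212 by limma with Benjamini-Hochberg adjustment over all 19775 genes. Without the 4 arrays of raised low signal the difference was 1.22 (adjusted p = 0.00501). The call was lost with quantile scaling, at 0.97 (adjusted p = 0.0585). It was also lost without ES pool 1, at 1.04 (adjusted p = 0.0611), without ES pool 3, at 1.06 (adjusted p = 0.0593), and without day 17 pool 3, at 0.81 (adjusted p = 0.112). The day 6 difference from ES cells, 0.83 ± 0.31, did not pass (adjusted p = 0.211), nor did day 17 against day 10, at 0.81 ± 0.31 (adjusted p = 0.315). The day 6 mean, 16.1 ± 3.73, lay between those of ES cells and day 17. The day 10 mean was lower, at 6.73 ± 9.64, and 4.75 ± 3.71 with bFGF. Untreated day 10 differed from day 6 by -0.57 ± 0.31, which did not pass (adjusted p = 0.360 in limma).

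HOXB2 acts in the rhombomeres behind the second, and its day 6 pools lay above its ES pools. It read 4.73, 7.88 and 56.0 in ES cells and 70.1, 110.4 and 85.4 at day 6. It read 86.4, 34.5 and 96.1 at day 10, and 94.2, 18.1 and 82.1 with bFGF. At day 17 it read 39.5, 41.3 and 148 without and 154.7, 69.3 and 57.2 with bFGF. ES pool 3 stood apart from the other ES pools. In both day 10 groups pool 2 was the lowest, against the direction of most HOX genes on those arrays. The day 6 difference from ES cells was 1.65 ± 0.56 (adjusted p = 0.145), and that of day 17 was 1.29 ± 0.56 (adjusted p = 0.127). Without ES pool 3 both passed, at 2.22 (adjusted p = 0.0482) and 1.86 (adjusted p = 0.0340). This was 1 of the 18 alternatives run in each comparison. Neither difference passed in the other 17, with an adjusted p of up to 0.417 at day 6 and 0.430 at day 17 in limma.

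HOXB3, expressed in the caudal hindbrain, was higher in all untreated day 17 pools than in all ES pools. It read 19.6, 38.7 and 28.5 in ES cells, 16.9, 39.3 and 17.4 at day 6, and 28.4, 105 and 21.2 at day 10. With bFGF it read 34.9, 90.0 and 15.2 at day 10 and 75.8, 127 and 46.3 at day 17. Untreated day 17 pools read 64.8, 93.4 and 69.2. Pool 2 was the highest pool in each of these 6 groups. The difference of day 17 from ES cells was 1.04 ± 0.46 and did not pass (adjusted p = 0.138). With the pool number as a block it passed (adjusted p = 0.00826 with a fixed and 0.0227 with a random block), as it did with pool 2 left out of all groups, at 1.06 (adjusted p = 0.0285). It also passed in a fit of the ES and untreated day 17 pools alone (adjusted p = 0.0275). These are 4 of the 18 alternatives run. It did not pass in the other 14, among them quantile scaling and the fit without the 4 raised arrays, with an adjusted p of up to 0.317. A second HOXB3 probe set differed by 0.81 in the same comparison.

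HOXD1, a group 1 paralogue, read 14.2, 19.7 and 1.85 in ES cells and 4.99, 1.29 and 9.53 at day 6. At day 10 it read 8.15, 70.7 and 43.7, and with bFGF 20.1, 37.5 and 5.48. At day 17 it read 7.63, 48.6 and 32.1, and with bFGF 12.4, 65.6 and 23.4. Pool 2 was the highest in all 4 neuroepithelium groups, and the groups overlapped in each comparison. The difference of day 10 from day 6 was 1.25 ± 0.51 (adjusted p = 0.188), while the second HOXD1 probe set gave -0.21. HOXB1, which marks the fourth rhombomere, ran from 3.31 to 77.6 over the 18 arrays with a median of 11.3, and no higher than 36.4 on the 14 arrays without raised low signal. HOXB1 passed as lower at day 17 than in ES cells when pool 2 was left out of all groups, at -1.16 (adjusted p = 0.0225), from -0.44 over all pools. It passed in no other alternative, and its second probe set gave -0.11 over all pools. HOXB4, of the hindbrain to spinal cord transition, ran from 5.62 to 58.7, with its highest value in day 6 pool 3. HOXC4 ran from 14.4 to 103 and HOXD4 from 0.656 to 59.0, and on the 14 arrays they reached 50.1 and 26.99.

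**Figure D3:**
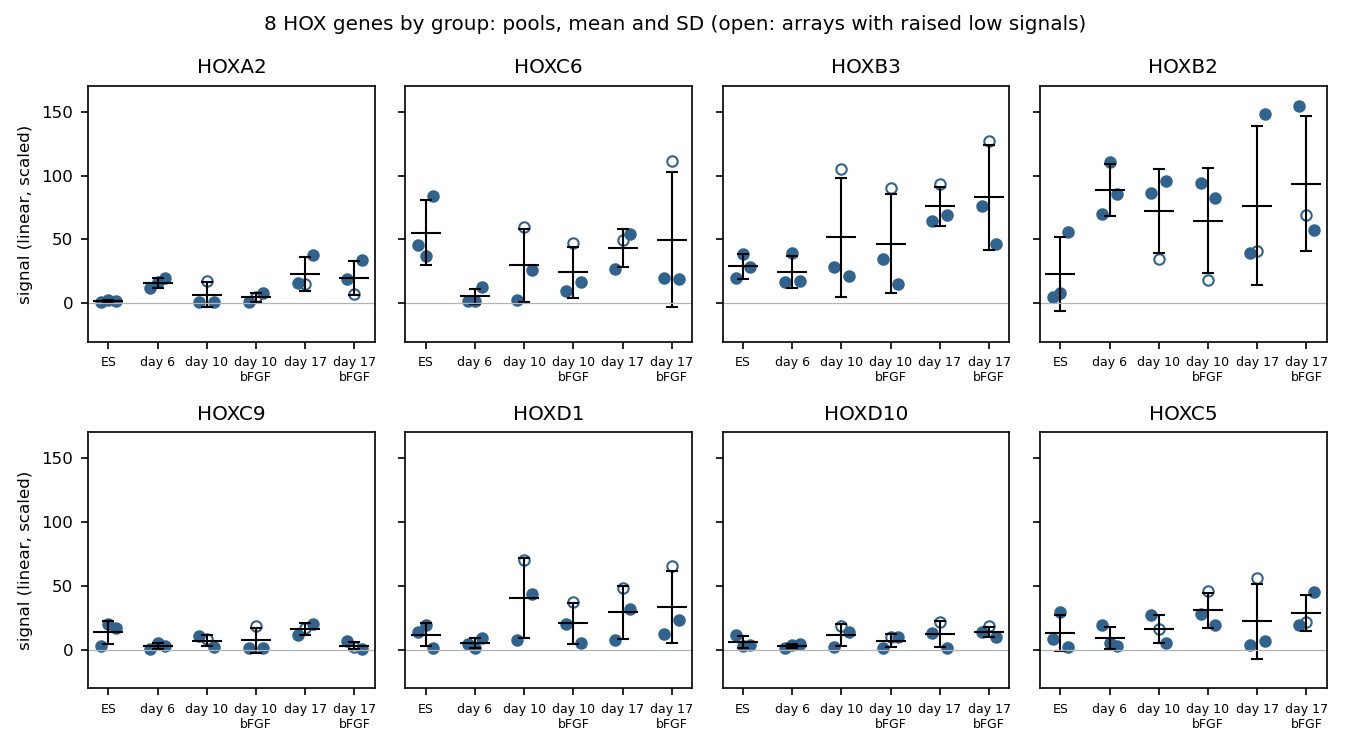
Linear signal of the 8 HOX genes given array by array, by group, with 1 point per pool (open on the 4 arrays with raised low signals), a dash for the group mean and whiskers for the SD. HOXA2 lies at 1.33 to 2.97 in ES cells and 14.8 to 38.2 at day 17, and HOXC6 at 36.7 to 84.2 in ES cells and 1.93 to 12.6 at day 6.

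Paralogues 5 to 9 belong to the cervical and thoracic spinal cord. None of the 11 measured passed the test in any comparison, where the share of all genes that passed was 0% to 20.2% by comparison. HOXC6, a gene of the limb-level cord, read 45.3, 36.7 and 84.2 in ES cells and 1.93, 2.13 and 12.6 at day 6. It read 3.07, 59.99 and 26.3 at day 10, and 9.37, 47.0 and 16.8 with bFGF. At day 17 it read 26.7, 49.7 and 54.7, and with bFGF 19.8, 111 and 18.9. Its day 6 pools all lay below the ES pools, a difference of -1.71 ± 0.53 that missed the threshold (adjusted p = 0.09996). With the pool number as a block it passed as lower (adjusted p = 0.0269 fixed, 0.0254 random), though pool 2 of ES cells and of day 6 name different passages. It also passed in a fit of those 2 groups alone (adjusted p = 0.0244), with quantile scaling, at -1.79 (adjusted p = 0.0366), without pool 2, at -1.79 (adjusted p = 0.0468), and without the 4 raised arrays (adjusted p = 0.00959). These are 6 of the 17 alternatives run. It did not pass in the other 11, among them both other pseudocounts and leaving out any 1 ES or day 6 pool, with an adjusted p of up to 0.345.

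HOXC9, a thoracic gene, read 3.46, 20.5 and 17.4 in ES cells, 0.917, 5.09 and 2.91 at day 6, and 11.0, 8.83 and 2.30 at day 10. With bFGF it read 1.64, 19.0 and 1.88 at day 10. At day 17 it read 11.6, 16.8 and 20.4 without and 6.68, 2.60 and 1.01 with bFGF, so that the bFGF pools all lay below the untreated ones. This difference was -0.73 ± 0.29 with an unadjusted p of 0.0215 and an adjusted p of 0.780 in limma. HOXC5 read 8.34, 29.3 and 2.28 in ES cells, 19.4, 5.78 and 3.26 at day 6, and 27.1, 16.7 and 5.16 at day 10. With bFGF at day 10 it read 28.2, 46.1 and 19.3. At day 17 it read 3.71, 55.9 and 7.23, and with bFGF 19.6, 22.2 and 45.3. The HOXC5 groups overlapped in each comparison, and the bFGF differences were 0.57 ± 0.46 at day 10 and 0.45 ± 0.46 at day 17.

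For the other 8 genes of this range no group stood apart by the test. The lowest, median and highest values over the 18 arrays were 3.32, 42.1 and 111 for HOXB5, 1.09, 19.0 and 69.8 for HOXB6, and 1.78, 24.8 and 54.1 for HOXB7. They were 0.733, 11.3 and 30.1 for HOXB8, and 6.81, 22.0 and 62.0 for HOXB9. HOXC8 ran from 4.23 to 88.5, HOXD8 from 15.9 to 53.7 and HOXD9 from 3.44 to 100.8. On the 14 arrays without raised low signal their highest values were 49.3 for HOXB5, 50.1 for HOXC8 and 27.5 for HOXD9, so the high ends of these genes came from the 4 raised arrays.

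Paralogues 10 to 13, of the lumbosacral cord and tail, gave no called gene among the 9 measured, against the same 0% to 20.2% of all genes. Their signals ran from 0.552 to 95.3 with a median of 9.64. HOXD10, a lumbar motor column gene, read 11.9, 3.05 and 3.66 in ES cells, 1.76, 3.54 and 4.62 at day 6, and 2.37, 18.8 and 14.3 at day 10. It read 13.01, 21.9 and 1.69 at day 17. With bFGF it read 1.38, 10.2 and 9.76 at day 10 and 14.3, 18.3 and 10.5 at day 17. Its bFGF pools were all higher at day 17 than at day 10, by 0.41 ± 0.29 (adjusted p = 0.965). HOXC10 ran from 6.15 to 68.1, HOXC11 from 4.82 to 95.3 and HOXC12 from 1.13 to 53.9. HOXC13 reached 11.3, HOXD11 31.3, HOXD13 53.6 and HOXB13 22.3, and HOXD12 stayed between 0.552 and 4.42. On the 14 arrays no gene of this range passed 46.5.

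In the step from ES cells to day 6, 0 of 28 HOX genes passed the limma test, against 3.85% of all genes (2.19% higher, 1.66% lower). At an unadjusted p under 0.05 there were 3, HOXA2, HOXB2 and HOXC6, against 13% of all genes. The median HOX difference was -0.01, and 13 of 28 were positive, against 50% of all genes. Leaving out 1 pool in turn gave medians of both signs. HOXB genes had a median of 0.27, HOXC of -0.24 and HOXD of -0.09, none of which uses the 4 raised arrays. The groups did not overlap for 4 HOX genes, HOXA2 and HOXB2 upward and HOXC6 and HOXC12 downward, while 19.8% of all genes had groups that did not overlap.

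From day 6 to untreated day 10, 0 of 28 passed by limma, against 6.37% of all genes (3.73% higher, 2.64% lower), and 1, HOXD1, at an unadjusted p under 0.05, against 18.2%. The median HOX difference was 0.38 and that of all genes 0.09, with 21 of 28 HOX genes positive, all 9 HOXC genes among them, against 58% of all genes. Without the 4 raised arrays the HOX median was 0.08 and that of all genes 0.05. With quantile scaling they were 0.17 and -0.02. Without the 4 arrays 6 of the 10 HOXB, 8 of the 9 HOXC and 5 of the 8 HOXD genes were positive. HOXC12 and HOXD11 had groups that did not overlap, both upward, against 23.2% of all genes.

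From day 10 to day 17 without bFGF, 0 of 28 passed by limma, against 1.99% of all genes (1.45% higher, 0.536% lower). HOXA2 had an unadjusted p under 0.05, against 9.76% of all genes, and the median HOX difference was -0.06 (-0.08 without the 4 raised arrays). Its sign rested on single pools: it was 0.13 without day 17 pool 1 and -0.31 without day 17 pool 2, and 0.14 without day 10 pool 2. HOXC9 was the 1 member whose groups did not overlap, against 13.6% of all genes. With bFGF on both days, 0 of 28 passed, against 1.05% of all genes (0.662% higher, 0.389% lower), again with HOXA2 the 1 gene at an unadjusted p under 0.05, against 7.31%. The HOXA2 difference there was 0.74 ± 0.31 (adjusted p = 0.542 in limma), and 1.03 without the raised arrays (adjusted p = 0.199). The HOX median was 0.12 (0.06 without the raised arrays), but -0.18 without day 17 bFGF pool 2, and HOXD10 was the 1 member whose groups did not overlap, against 12% of all genes.

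FGF is a caudalising signal in embryos. Few genes of any kind passed with bFGF here, so a count of 0 of 28 HOX genes is near the share of all genes. At day 10, 0 of 28 HOX genes passed by limma, against 0.086% of all genes (0.0809% higher, 0.00506% lower), and 0 had an unadjusted p under 0.05, against 3.1%. The differences ran from -0.74 to 0.58 with a median of -0.07. That median was 0.0008 without the raised arrays, -0.23 without untreated pool 1 and 0.19 without untreated pool 2. With 1 bFGF pool left out it was 0.08 without pool 1, -0.21 without pool 2 and 0.02 without pool 3, so it had no stable sign. The groups overlapped for all 28 HOX genes, while 6.11% of all genes had groups that did not. At day 17, 0 of 28 passed, against 0.339% of all genes (0.182% higher, 0.157% lower). HOXC9, lower with bFGF, was the 1 gene with an unadjusted p under 0.05, against 4.96%, and the 1 whose groups did not overlap, against 9.03%. Differences ran from -0.73 to 0.45, with a median of 0.11 (0.04 without the raised arrays) and 21 of 28 positive, against 47.8% of all genes. This median too changed sign with single pools, at -0.07 without untreated pool 1, 0.35 without untreated pool 2 and -0.27 without bFGF pool 2. Without the raised arrays 6 of 10 HOXB, 5 of 9 HOXC and 5 of 8 HOXD genes were positive at day 17. The 95% interval lay between log2 differences of -2 and 2 for all 28 genes in both comparisons, and its upper limit under 1 for 18 of them at day 10 and 10 at day 17. Because 16 is added to every signal, differences of such low signals are compressed, and a gene near 0 can hardly fall at all. These intervals therefore set no limit on fold changes of the signal itself. The change of the bFGF effect between the days passed for 0 of 28 HOX genes and 0% of all genes in limma, with 0 HOX genes and 3.19% of all genes at an unadjusted p under 0.05.

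Over the whole course, untreated day 17 against ES cells, 1 of 28 HOX genes passed, HOXA2, against 20.2% of all genes (11.7% higher, 8.47% lower). HOXA2, HOXB2 and HOXB3 had an unadjusted p under 0.05, against 30.1% of all genes. The median HOX difference was 0.27 and that of all genes 0.09, with 25 of 28 HOX genes positive, against 57.2% of all genes. By cluster 9 of 10 HOXB, 7 of 9 HOXC and 8 of 8 HOXD genes were positive. Without the 4 raised arrays these counts were 8, 3 and 4, and with quantile scaling 7, 3 and 4. By cluster the medians were 0.43 for HOXB, 0.19 for HOXC and 0.27 for HOXD. By paralogue number they were 0.56 for 1 to 4, which includes HOXA2, 0.33 for 5 to 9 and 0.09 for 10 to 13. Without the 4 raised arrays those for HOXB, HOXC and HOXD were 0.19, -0.13 and 0.0005, and those by paralogue number 0.58, 0.14 and -0.13, so HOXC and paralogues 10 to 13 changed sign. HOXB2, HOXA2 and HOXB3 had the 3 largest differences, the only 3 past 2-fold on this scale, against 15.1% of all genes past it. The groups did not overlap for HOXA2 and HOXB3, against 33.6% of all genes. Without the 4 raised arrays the HOX median was 0.045 and that of all genes 0.02, and with quantile scaling they were 0.05 and -0.04.

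**Figure D4:**
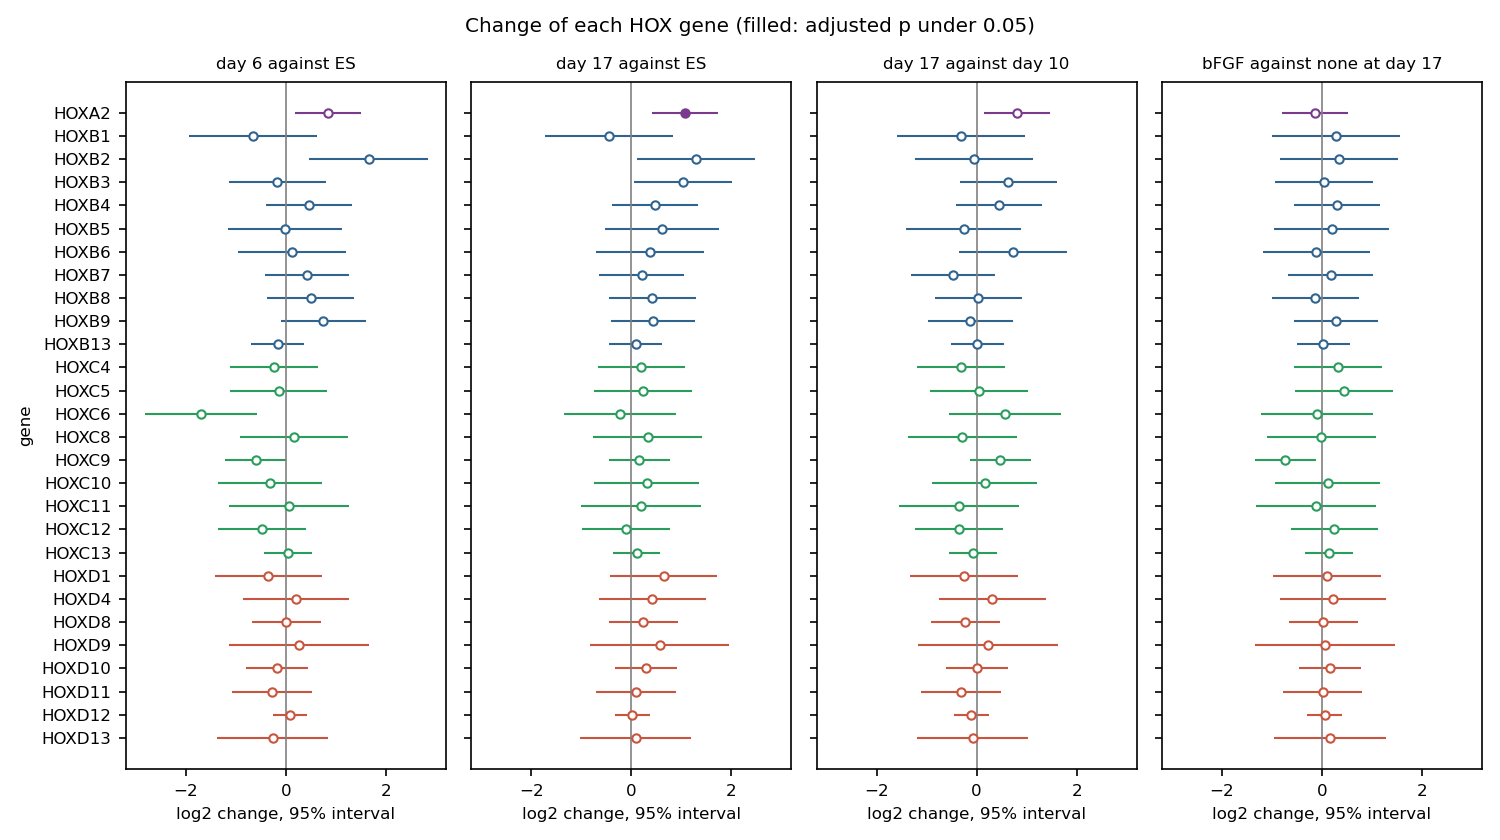
Log2 differences of the 28 HOX genes on log2(signal + 16), with 95% intervals from limma, in 4 comparisons: day 6 and day 17 against ES cells, day 17 against day 10, and bFGF against none at day 17. Colour marks the cluster, and the 1 filled point, with an adjusted p under 0.05, is HOXA2 at day 17 against ES cells, at 1.07.

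Of the members, 13 had more than 1 probe set of their own. Those probe sets disagreed in sign for 9 of the 13 genes at day 6 against ES cells and at day 10 against day 6, and for 3 of the 13 at day 17 against ES cells. HOXA2 had 1 probe set, so its change has no such check. Of 20 long RNAs and neighbouring genes of the clusters, MTX2, a mitochondrial gene next to HOXD, fell from 945 ± 44.1 in ES cells to 631 ± 64.3 at day 17 (-0.57 ± 0.16, adjusted p = 0.0163 in limma). None of the 20 rose there, where 11.7% of all genes rose and 8.47% fell. None passed in the other 7 comparisons by limma, against 0% to 6.37% of all genes. At an unadjusted p under 0.05 there were 0 to 3 of the 20, against 3.1% to 18.2% of all genes. HOTAIR, a long RNA transcribed within HOXC, ran from 0.162 to 20.2.

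Some HOX cofactors rose. Of 8 measured PBX, MEIS and PKNOX genes, which make proteins that bind DNA together with HOX proteins, 3 rose at day 6, again from day 6 to day 10, and over the whole course, MEIS2, MEIS1 and PKNOX2 each time. Of all genes 2.19%, 3.73% and 11.7% rose in these 3 comparisons. MEIS2 had a mean of 62.0 ± 21.5 in ES cells, 572 ± 118 at day 6, 1892 ± 155 at day 10 and 2029 ± 553 at day 17. MEIS1 had 27.2 ± 8.12, 107 ± 29.4, 477 ± 104 and 651 ± 68.4 at the same times. Over the whole course MEIS2 rose by 4.72 (adjusted p = 3.01e-09), MEIS1 by 3.96 (2.72e-09) and PKNOX2 by 2.35 (2.92e-07), on the log2 scale in limma. No cofactor passed in either bFGF comparison by limma, against 0.086% of all genes at day 10 and 0.339% at day 17. At an unadjusted p under 0.05 there were 1 at day 10 and 2 at day 17, against 3.1% and 4.96%.

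The regulators upstream of the clusters were mixed. The 3 CDX genes, which relay caudal signals to the clusters, stayed low and passed in no comparison by limma: CDX1 at 2.09 to 64.5, CDX2 at 0.741 to 31.9 and CDX4 at 1.16 to 27.3. At an unadjusted p under 0.05 there were 2 of the 3 with bFGF at day 10, against 3.1% of all genes, and they differed in opposite directions. CDX1 had means of 10.4 without and 37.3 with bFGF, a log2 difference of 1.02, and CDX2 12.04 and 1.49, a difference of -0.63. CDX2 was also the 1 gene at day 6 against ES cells, at -0.62 (against 13% of all genes), and with bFGF at day 17, at -0.83 (against 4.96%). Of 13 tail bud and caudal neural plate genes 1 rose at day 6, SP5 (2.19% of all genes rose). From day 6 to day 10, 1 rose and 3 fell, against 3.73% and 2.64% of all genes. FGF8, the one that rose, went from 22.95 ± 16.3 to 147 ± 64.3 (2.05, adjusted p = 0.0279 in limma). From ES cells to day 17 none rose and 2 fell, FGF4 and CYP26A1, against 11.7% and 8.47% of all genes. ES cells also make both, with means there of 232 ± 32.2 for FGF4 and 2796 ± 581 for CYP26A1. CYP26A1 is also counted among the retinoic acid genes below. TBXT, the mesoderm factor brachyury, ran from 9.93 to 99.3.

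Of 15 genes of retinoic acid metabolism and reception, 5 rose and 2 fell from ES cells to day 17, against 11.7% and 8.47% of all genes. ALDH1A2, a retinoic acid synthesising enzyme, rose at day 6 from 2.32 ± 0.195 to 321 ± 123, and fell by day 10 to 22.4 ± 15.5. CYP26A1, which degrades retinoic acid, had a mean of 3831 ± 315 at day 6 and fell by day 10 to 276 ± 45.9, a log2 difference of -3.73 (adjusted p = 4.87e-08 in limma). With bFGF at day 17, none of the 15 rose and 2 fell, the synthesising enzymes ALDH1A1 and ALDH1A3, by log2 differences of -2.97 (adjusted p = 0.0282) and -1.92 (adjusted p = 0.0110). Of all genes 0.182% rose and 0.157% fell there.

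Gene lists for levels of the head-to-tail axis were also measured, and their relation to the HOX signals was not tested. Of 16 forebrain and eye field genes 10 rose and 1 fell from ES cells to day 17, with a list median of 3.51, against 0.09 over all genes and 0.27 over the HOX genes. In this comparison 11.7% of all genes rose and 8.47% fell. LHX2 had a mean of 7.24 ± 9.05 in ES cells and 4073 ± 392 at day 17, EMX2 13.5 ± 15.9 and 1290 ± 311, and PAX6 46.6 ± 17.5 and 2213 ± 647. PAX6 is also on the list of neural progenitor and neuron genes. Of 11 hindbrain genes 4 rose and none fell, against the same shares of all genes, with a median of 0.28. The largest of these, NR2F1, SP8 and EPHA4, are also expressed in the forebrain, and NR2F1 had means of 16.8 ± 13.8 and 1376 ± 439. Of 16 spinal cord genes 3 rose and none fell, ISL1, OLIG2 and PAX3, again against 11.7% and 8.47% of all genes, with a median of 0.43. ISL1 and OLIG2 are also made in the forebrain.

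**Figure D5:**
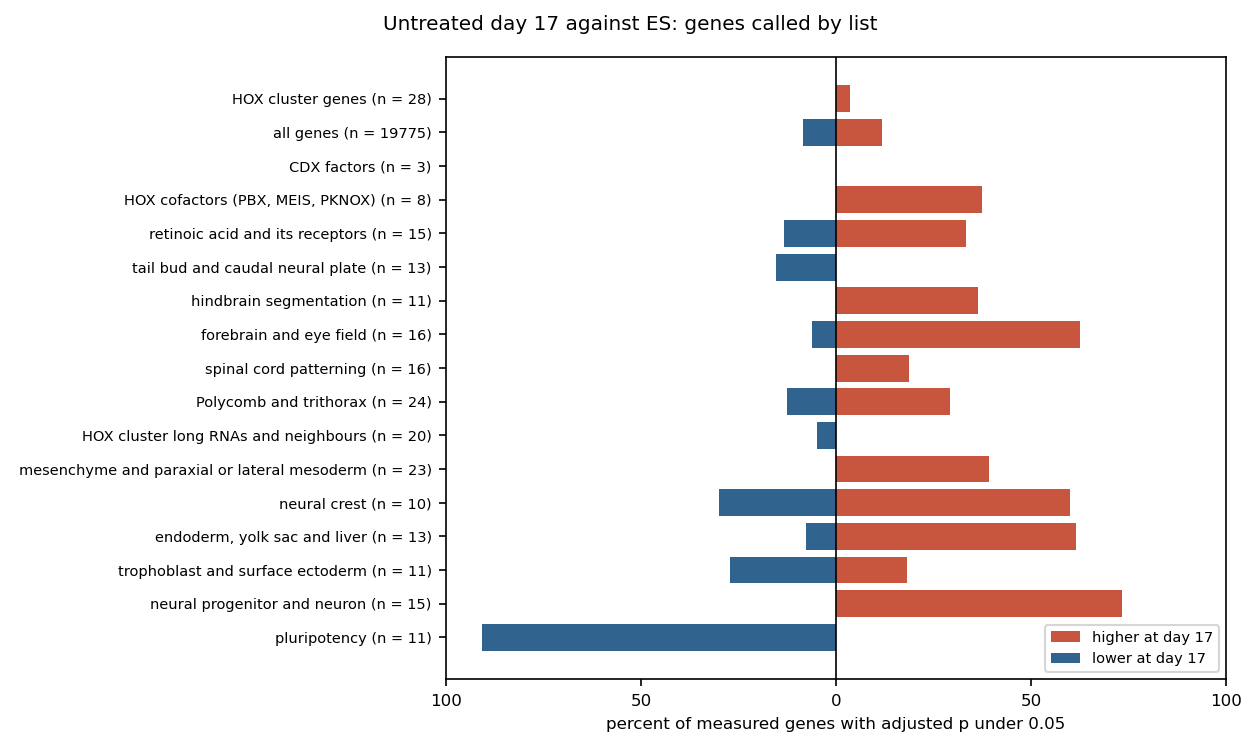
Share of the measured genes of each list that passed as higher (bars to the right, percent) or lower (bars to the left) at day 17 against ES cells, with n beside each list and with the HOX genes and all genes for comparison. Of the forebrain list 10 of 16 passed as higher, of the HOX genes 1 of 28, and of all genes 11.7%.

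With bFGF at day 17, 1 of 11 hindbrain genes and 1 of 16 spinal cord genes passed, both upward, against 0.182% of all genes. EN2, a midbrain-hindbrain boundary factor that lies in front of HOX territory, had a mean of 92.8 ± 31.8 with bFGF and 17.1 ± 8.88 without, a log2 difference of 1.71 ± 0.24 (adjusted p = 0.00436 in limma). GBX2, which marks the hindbrain side of that boundary, had 38.0 ± 30.1 and 3.65 ± 2.41, which did not pass (1.33 ± 0.34, adjusted p = 0.224). PAX7, of the dorsal midbrain and cord, was the 1 of 16 spinal cord genes that passed, at 149 ± 56.1 with and 31.4 ± 8.32 without bFGF (adjusted p = 0.0135).

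Polycomb and trithorax proteins keep HOX clusters silent or active. Of 24 measured, 7 rose and 3 fell from ES cells to day 17, against 11.7% and 8.47% of all genes. PHC1 fell from 2592 ± 565 to 438 ± 76.4 and JARID2 from 2660 ± 565 to 951 ± 57.5, while PHC2 rose from 165 ± 30.9 to 1073 ± 396. None of the 24 passed in either bFGF comparison by limma, against 0.086% of all genes at day 10 and 0.339% at day 17. At an unadjusted p under 0.05 there were 1 at day 10 and 0 at day 17, against 3.1% and 4.96%.

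Markers of other cell types, some of which carry HOX transcripts in the body, were also measured. From ES cells to day 17, 11.7% of all genes rose and 8.47% fell. Of 23 mesenchyme and mesoderm genes 9 rose and none fell from ES cells to day 17, and their summed signal was 3231 to 5432 in ES cells, 1805 to 2022 at day 6 and 12357 to 14265 at day 17. Of 13 endoderm, yolk sac and liver genes 8 rose and 1 fell, with sums of 491 to 771 in ES cells and 2208 to 3940 at day 17. Of 10 neural crest genes 6 rose and 3 fell, with sums of 1057 to 1695 and 1818 to 2288. Of 11 trophoblast and surface ectoderm genes 2 rose and 3 fell, with sums of 11978 to 13710 and 2155 to 2814. The ES sum was mostly of the epithelial genes EPCAM and CDH1, which ES cells also make, with means there of 5360 and 4015. HAND1, of lateral mesoderm, rose from 25.6 ± 6.21 in ES cells to 189 ± 16.4 at day 6 (2.31, adjusted p = 0.000298 in limma), while HAND2 had group means of 1.60 to 6.89. The part of these cells in the HOXA2 difference was not tested.

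With bFGF at day 17, 1 of the 23 mesenchyme genes rose and none fell, and 2 of the 13 endoderm and liver genes and 1 of the 11 trophoblast and surface ectoderm genes fell, against 0.182% of all genes higher and 0.157% lower. Of the 10 neural crest genes 0 passed in limma, with 3 at an unadjusted p under 0.05. AFP, a fetal liver protein, fell from a mean of 830 to 127 (-2.55, adjusted p = 0.00574). APOB, a lipoprotein of liver and gut, fell from 186 to 31.3 (adjusted p = 0.0154) and CDH1 from 218 to 59.99 (adjusted p = 0.0399). PRRX1, a mesenchymal factor, rose from 57.8 to 325 (2.18, adjusted p = 0.0129). The summed endoderm and liver signal was 1314 to 1790 with bFGF and 2208 to 3940 without, and the mesenchyme sum 11452 to 13377 and 12357 to 14265. The part of these cells in the bFGF values of the HOX, ALDH1A, EN2 and PAX7 genes was not tested.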

How the data were processed

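RNA pools of H9 cells and their derivatives, 3 per group in 6 groups, were measured on 18 Affymetrix arrays. The deposited values are linear intensities, 1 per probe set; that the authors scaled them is read from the values, since the 2% trimmed mean was about equal on all arrays. How the chips were summarised and background-corrected is not given in the sources used here. Of 54675 probe sets 41097 named 1 gene in the platform annotation, 1801 named several and 11777 named none. Each of 19775 genes was read by its probe set of highest mean, with _x_at sets dropped where another existed.

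Values were analysed as log2(signal + 16) in R 4.3.3 by the limma package, version 3.58.1. The model gave each group its own mean and used the 18 arrays together (12 residual degrees of freedom), with moderated two-sided tests, Benjamini-Hochberg adjustment across the genes and a threshold of 0.05. The procedure was checked on simulated data with known answers. Their noise was independent between arrays, without shared pool deviations or raised arrays, so the check does not cover these features. The number of arrays limits the precision. The comparisons share groups, so their values are not independent.

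Members were chosen by symbol. The members and the 15 gene lists were chosen with earlier results of these data known. Array-by-array values were given for members called in any comparison and, up to 8 genes, those with the largest moderated F over the groups. For the lists, up to 3 called genes with the largest change in a comparison were named; CDX1, CDX2, CDX4, TBXT, HOTAIR, HAND2 and GBX2 were named after their values were seen. The title of bFGF day 10 pool 2 and its description give different pool numbers, and the title's was used. The ES pool without a number was called pool 1 by accession order; it names the same passages as day 6 pools 1 and 2, so its place in the blocked fits is less certain than that of the numbered pools.

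Pools of the same number deviated together: the correlation of their deviations from the group means was 0.156 to 0.668, apart from 1 pair, pool 1 at day 10 against day 6, at 0.0749. Some same-numbered pools name the same passages, but ES pool 2 names passages 24, 25 and 26 and day 6 pool 2 names 27, 28 and 31. In the day 6 against ES comparison the pool 2 block thus joins different passages. The alternatives tried changed the pseudocount (1 or 64), the scaling (quantile), the genes kept (those in the upper 60% by mean), the variance prior, the probe sets (averaged, or each alone), the arrays fitted (just those compared, no pool 2, no raised arrays, or 1 pool fewer) and the block (pool number).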

Additional observations from a re-analysis of the deposited data

How the results depend on the processing

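In 6 of the 8 comparisons the number of HOX genes called was 0 under all alternatives run, and the HOXA2 difference of day 17 from ES cells stayed positive. The other 2 were day 6 and day 17 against ES cells. At day 6 the count of 0 became 1, HOXC6 as lower, with quantile scaling, with the compared groups only, with the pool number as a block (fixed or random), without pool 2 of all groups and without the 4 raised arrays. Leaving out 1 pool in turn gave 0 to 1, the 1 being HOXB2 without ES pool 3. At day 17 the count of 1 became 0 with quantile scaling and 0 with the lower 40% of genes filtered out, which leaves 5 HOX genes without HOXA2. It became 2, HOXA2 and HOXB3, with the compared groups only and with the block (fixed or random), and 3 without pool 2, with HOXB1 as lower. Leaving out 1 pool in turn gave 0 to 1, with 0 without ES pool 1 and without day 17 pool 3, and without ES pool 3 the 1 was HOXB2. The median over the HOX genes was less stable: over the alternatives it took both signs in all comparisons but day 10 against day 6 (0.08 to 0.70) and day 17 against ES cells (0.02 to 0.61).

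The HOXA2 difference was 1.07 with the pool block (adjusted p = 0.0122 fixed, 0.00842 random). Its size depended on the pseudocount, at 2.91 with 1 (adjusted p = 0.0190) and 0.39 with 64 (adjusted p = 0.0494), which the scale itself brings about for low signals. The cause of the other differences was not tested. Beyond adding HOXB3 at day 17 and HOXC6 at day 6, both against ES cells, the blocked fits changed no HOX call. The percentage of all genes called with a fixed block was 7.35% at day 6 and 29.4% at day 17 against ES cells, against 3.85% and 20.2% without it. The signals lie at the low end of the arrays, 3 pools a group were available, and 10 HOXA genes are not analysed here.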
